A study of Homo sapiens with 8 samples.

Results

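The oxygen-sensing core examined here consists of 10 genes. They encode the hypoxia-inducible factor (HIF) subunits HIF1A, EPAS1, HIF3A, ARNT and ARNT2, the HIF prolyl hydroxylases EGLN1, EGLN2 and EGLN3, the asparaginyl hydroxylase HIF1AN and the ubiquitin ligase component VHL. Members were chosen by gene symbol, as every probe set (a group of short array probes summarised to 1 value) that the platform annotation gives to exactly 1 of these genes. The rule itself uses gene symbols and no measured value, but the members were chosen with earlier results of these data known. It gave 31 of 41091 probe sets with a single gene, covering 10 of 19775 genes.

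A HIF is a pair of an alpha subunit (HIF1A, EPAS1 or HIF3A) and a beta subunit (ARNT or ARNT2). In oxygenated cells the prolyl hydroxylases modify the alpha subunit, VHL then recognises it and it is destroyed, while HIF1AN blocks its contact with coactivators. These enzymes need oxygen, so alpha protein builds up in low oxygen without any need for more alpha mRNA, and the genes it switches on include some of its own hydroxylases.

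The study used colon cancer cell lines on single-colour oligonucleotide arrays. The groups were DKS-5 (K-ras mutant) after 12 h at 1% O2, DKS-5 at 21% O2, DKO-3 (labelled both K-ras knockout and wild-type) after 12 h at 1% O2, and DKO-3 at 21% O2. There were 4 groups of 2 arrays. All cultures grew in standard medium and were harvested before confluence, and no group had another agent. Each genotype is represented by a single line, so line and genotype cannot be told apart. The labels do not state that paired samples came from different cultures, and every p-value below therefore reflects spread among the arrays at hand, possibly technical.

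Values below are MAS5 signals scaled so that all 8 arrays have the same 2% trimmed mean of 172.9, and the number of arrays limits their precision. Differences are on the log2(signal + 16) scale, which understates changes of dim probe sets, and were tested with limma over 32768 probe sets at a Benjamini-Hochberg adjusted p of 0.05. Of 12 colon epithelium markers, 9 passed the filter on dim signals, with the adhesion gene EPCAM between 5315 and 7749 on all arrays, whereas CDX1, GPA33 and LGALS4 stayed below it. Averaged over oxygen, DKS-5 was lower in the keratin genes KRT20 (-4.01, adjusted p = 2.19e-08) and KRT19 (-0.96, adjusted p = 0.00361) and higher in the brush border gene VIL1 (1.65, adjusted p = 6.74e-05), and KRT19 rose in hypoxia (1.199, adjusted p = 0.00251). Of 15 annotated markers of blood, vessel, stromal and other cells, 4 passed (COL1A1, ACTA2, DES and HBB), and the leucocyte gene PTPRC lay between 2.50 and 10.8. The summed signal of these 15 was 264 to 277 in DKS-5 hypoxia, 242 to 261 in DKS-5 normoxia, 195 to 256 in DKO-3 hypoxia and 167 to 230 in DKO-3 normoxia. The ratio of 3' to 5' control signals of ACTB, a measure of RNA integrity and amplification, was 54.8 and 25.6 in DKS-5 hypoxia, 55.1 and 34.3 in DKS-5 normoxia, 11.5 and 11.0 in DKO-3 hypoxia and 49.0 and 14.9 in DKO-3 normoxia. It was thus lowest in both DKO-3 hypoxia arrays.

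The members differed in whether they could be measured at all. Of the 31 probe sets, 19 passed the filter, which removed probe sets whose mean lay at or under the 40th percentile, a scaled signal of about 13.8. They covered 8 of the 10 genes. All 7 probe sets of HIF3A, an alpha subunit with isoforms that restrain HIF, stayed below the filter with signals from 0.424 to 14.0 and a median of 3.27. The only probe set of EGLN2 that carries no other gene's name also stayed below it, between 1.51 and 16.9. A pair of further EGLN2 probe sets carry a second gene's name and are not members. Below the filter lay also 1 probe set each of EPAS1, ARNT, VHL and EGLN1. Without the filter none of the 12 dim members passed in any of the 7 comparisons (limma, smallest adjusted p = 0.450), and no detection calls were used here, so dim does not mean absent. Just inside the limit of 4.90 on the log2 scale lay VHL 203844_at (mean 5.25) and EPAS1 200879_s_at (5.38), and just outside it VHL 1559227_s_at (4.86) and EGLN1 223045_at (4.56).

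In low oxygen the transcripts of the prolyl hydroxylases EGLN3 and EGLN1 rose, and no other member passed. Averaged over the lines, 5 of the 19 tested member probe sets rose, 0 fell and 14 did not pass, where 0.58% of all probe sets tested were called higher. The 5 were both probe sets of EGLN3 and all 3 tested ones of EGLN1. In DKS-5 alone 3 of 19 rose, where 0.259% of all probe sets were called higher, and in DKO-3 alone 2 of 19 rose, where 0.174% were. As the members were chosen with earlier results of these data known, these shares are a description and no test of enrichment. The members' median difference in the average of the lines was 0.18, against 0.02 for all probe sets tested.

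EGLN3, the prolyl hydroxylase best known for its strong induction by low oxygen, changed most among the members. Its probe set 222847_s_at read 565 and 629 in DKS-5 hypoxia, against 91.8 and 92.3 in DKS-5 normoxia. In DKO-3 it read 445 and 303 in hypoxia, against 70.8 and 63.2 in normoxia. Every hypoxia array lay well above every normoxia array, with no overlap in either line, and the DKO-3 hypoxia arrays differed most from each other. The rise was 2.50 ± 0.25 in DKS-5 (SE, 2 arrays per group, limma adjusted p = 0.000222) and 2.21 ± 0.25 in DKO-3 (adjusted p = 0.00286). On the log2(signal + 16) scale these are 5.66-fold and 4.63-fold. The other probe set, 219232_s_at, read 515 and 658 in DKS-5 hypoxia, against 97.3 and 107 in DKS-5 normoxia. It read 437 and 282 in DKO-3 hypoxia, against 58.1 and 79.4 in DKO-3 normoxia. Again no hypoxia array overlapped with a normoxia array, with rises of 2.34 ± 0.27 (adjusted p = 0.000717) and 2.13 ± 0.27 (adjusted p = 0.00425). Averaged over the lines, the EGLN3 differences of 2.36 and 2.24 ranked 4 and 7 by size among the 32768 probe sets. Without DKO-3 hypoxia replicate 1 neither EGLN3 probe set passed in DKO-3 (1.94, adjusted p = 0.0955, and 1.83, adjusted p = 0.154), nor did they without DKO-3 normoxia replicate 1 (2.28, adjusted p = 0.0505, and 1.94, adjusted p = 0.0859). With the ACTB ratio as a covariate 222847_s_at still passed in DKO-3 (2.23, adjusted p = 0.0436) and 219232_s_at did not (1.84, adjusted p = 0.128).

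**Figure D1:**
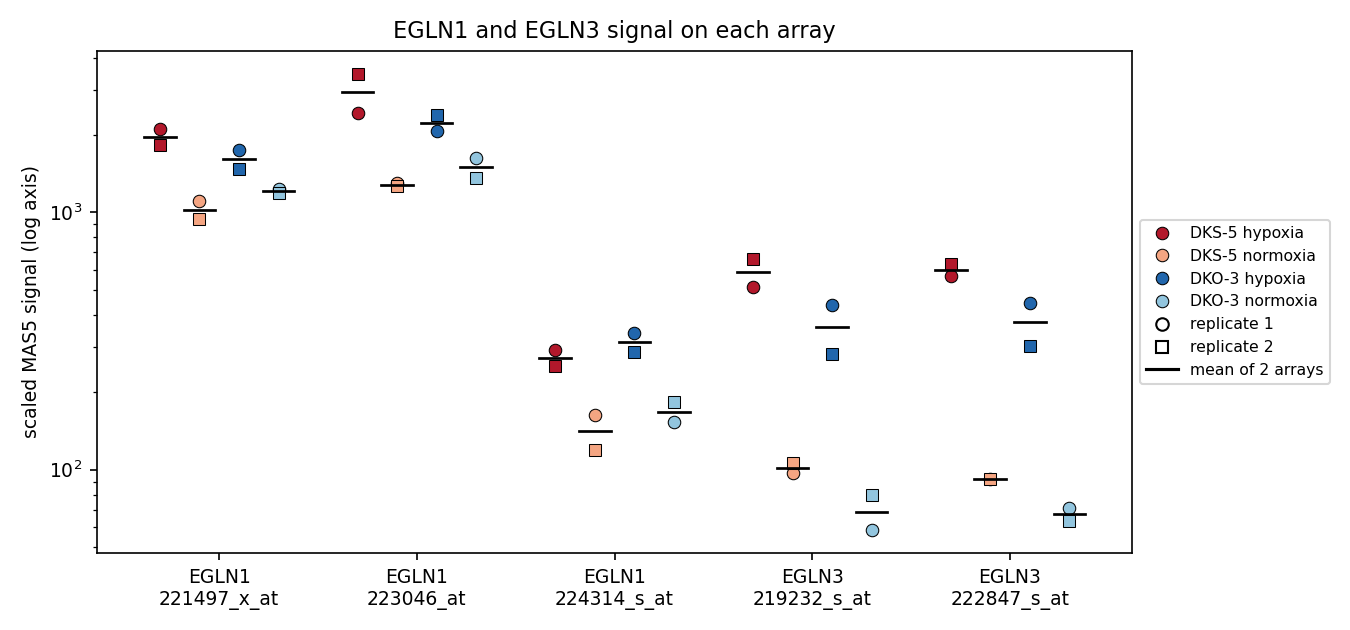
Scaled MAS5 signal (log axis) of the 2 EGLN3 and 3 tested EGLN1 probe sets on each of the 8 arrays, by group, with circles for replicate 1, squares for replicate 2 and a bar at the mean of 2 arrays. For each of these probe sets all hypoxia arrays lie above all normoxia arrays, by a wide gap for EGLN3 (282 or more against 107 or less) and a narrow one for EGLN1.

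EGLN1, the main hydroxylase that sets HIF1A levels in oxygenated cells, rose less. Its probe set 223046_at read 2435 and 3467 in DKS-5 hypoxia, against 1296 and 1273 in DKS-5 normoxia. In DKO-3 it read 2066 and 2392 in hypoxia, against 1635 and 1360 in normoxia. The groups did not overlap in either line. The difference was 1.17 ± 0.20 in DKS-5 (SE, limma adjusted p = 0.0179), which passed, and 0.57 ± 0.20 in DKO-3 (adjusted p = 0.475), which did not. The DKS-5 call ended without DKS-5 hypoxia replicate 2 (0.91, adjusted p = 0.153), without DKS-5 normoxia replicate 1 (1.18, adjusted p = 0.262) and without DKS-5 normoxia replicate 2 (1.15, adjusted p = 0.237).

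The other tested EGLN1 probe sets moved alike, though neither passed in a single line. The probe set 221497_x_at, whose suffix marks probes that may also match other transcripts, read 2105 and 1828 in DKS-5 hypoxia, against 1108 and 945 in DKS-5 normoxia. It read 1754 and 1479 in DKO-3 hypoxia, against 1229 and 1192 in DKO-3 normoxia. It was 0.93 ± 0.19 higher in DKS-5 (adjusted p = 0.0623) and 0.41 ± 0.19 in DKO-3 (adjusted p = 0.610). The probe set 224314_s_at read 292 and 254 in DKS-5 hypoxia, against 164 and 119 in DKS-5 normoxia. It read 340 and 287 in DKO-3 hypoxia, against 153 and 183 in DKO-3 normoxia, a difference of 0.84 ± 0.25 (adjusted p = 0.391) close to the 0.89 ± 0.25 of DKS-5 (adjusted p = 0.462). Averaged over the lines the probe sets 223046_at, 224314_s_at and 221497_x_at rose by 0.87 ± 0.14 (adjusted p = 0.00671), 0.86 ± 0.18 (adjusted p = 0.0399) and 0.67 ± 0.13 (adjusted p = 0.0296). With the ACTB ratio as a covariate these values were 0.85, 0.88 and 0.74, and none passed (adjusted p = 0.0870, 0.206 and 0.122). Without the filter none passed either (adjusted p = 0.0781, 0.127 and 0.119), nor without the trend (adjusted p = 0.0536, 0.0507 and 0.121). Without array scaling 224314_s_at (adjusted p = 0.0740) and 221497_x_at (adjusted p = 0.0607) missed, and with quantile normalization 224314_s_at did (adjusted p = 0.0584). Without single arrays 223046_at kept its call for all 8, with values from 0.74 to 1.00, whereas 221497_x_at kept it for 3 of 8 and 224314_s_at for 1 of 8.

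The start regions of these hydroxylase genes and of HIF1A are shown because EGLN1 and EGLN3 moved with oxygen while HIF1A did not pass. Each is the stretch of 250 bases before the gene's start, taken from RefSeq on GRCh38.p14, 5' to 3' on the gene's strand. Capitals mark the core of the hypoxia response element, searched as ACGTG and GCGTG on both strands. EGLN1 lies at chr1:231422288-231422537, minus strand, EGLN3 at chr14:33951075-33951324, minus strand, and HIF1A, in the first of 2 listed windows, at chr14:61695263-61695512, plus strand.
EGLN1: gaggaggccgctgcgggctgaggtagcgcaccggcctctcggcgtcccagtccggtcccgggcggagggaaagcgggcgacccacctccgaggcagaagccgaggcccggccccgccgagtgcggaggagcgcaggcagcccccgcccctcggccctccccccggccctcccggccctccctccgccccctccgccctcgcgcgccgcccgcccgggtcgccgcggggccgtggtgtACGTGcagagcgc
EGLN3: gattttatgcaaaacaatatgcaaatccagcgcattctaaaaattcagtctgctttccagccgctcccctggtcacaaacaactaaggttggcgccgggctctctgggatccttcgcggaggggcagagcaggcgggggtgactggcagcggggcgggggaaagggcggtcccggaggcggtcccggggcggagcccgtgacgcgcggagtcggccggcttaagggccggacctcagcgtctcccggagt
HIF1A: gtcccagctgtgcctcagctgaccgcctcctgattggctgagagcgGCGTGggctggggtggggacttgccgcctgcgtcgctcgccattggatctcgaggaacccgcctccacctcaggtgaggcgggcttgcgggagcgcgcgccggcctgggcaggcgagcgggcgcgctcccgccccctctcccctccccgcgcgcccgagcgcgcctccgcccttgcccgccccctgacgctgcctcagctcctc
EGLN1 held 1 ACGTG, which began 13 bases before the start. The HIF1A window held 1 GCGTG, 204 bases before the start, and in the EGLN3 window these letters did not occur. Of all 35116 windows of this length, 18.5% held ACGTG, 32.2% held GCGTG and 43.2% held either. A match, or the lack of one, thus describes this stretch of 250 bases and no more. EPAS1 had 1 match, HIF3A 3 in its first window and EGLN2 2 in its first window, on opposite strands of 1 overlapping palindrome. HIF1AN and ARNT had 0, and no window of ARNT2 or VHL was at hand.

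HIF1A, the alpha subunit through which most cells respond to acute hypoxia, had lower mean values in low oxygen, without passing the test. Its single probe set read 1977 and 1598 in DKS-5 hypoxia, against 2606 and 2542 in DKS-5 normoxia. In DKO-3 it read 1277 and 1581 in hypoxia, against 2490 and 1561 in normoxia. The DKS-5 groups did not overlap, whereas in DKO-3 normoxia replicate 2 lay among the hypoxia arrays. The difference was -0.53 ± 0.22 in DKS-5 (adjusted p = 0.890) and -0.47 ± 0.22 in DKO-3 (adjusted p = 0.615). Averaged over the lines it was -0.50 ± 0.15 (adjusted p = 0.237), with an unadjusted 95% interval from -0.83 to -0.17. That interval lies below 0.

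The HIF1A signal was lower on the arrays with a low ACTB ratio. The 4 arrays with an ACTB ratio of 25.6 or less read between 1277 and 1598, and the 4 with a ratio of 34.3 or more between 1977 and 2606. The low-ratio arrays were DKO-3 hypoxia replicates 1 and 2, DKS-5 hypoxia replicate 2 and DKO-3 normoxia replicate 2. Oxygen level and the ACTB ratio thus partly coincide, and the cause of the HIF1A difference was not tested. With that ratio as a covariate the averaged difference was -0.26 (adjusted p = 0.925), and in DKO-3 it was -0.06. Without single arrays the averaged value ran from -0.67 to -0.33, the smallest size without DKO-3 normoxia replicate 1.

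EPAS1, which encodes the HIF-2 alpha subunit, did not change past the threshold. Its probe set 200878_at read 157 and 138 in DKS-5 hypoxia, against 143 and 101 in DKS-5 normoxia. It read 255 and 161 in DKO-3 hypoxia, against 162 and 136 in DKO-3 normoxia. The hypoxia and normoxia arrays overlapped in both lines, and DKO-3 hypoxia replicate 1 was the highest array. The averaged difference was 0.33 ± 0.20 (adjusted p = 0.567) for this probe set and 0.27 ± 0.20 (adjusted p = 0.665) for 200879_s_at, whose signals lay between 13.4 and 47.0. The intervals ran from -0.09 to 0.76 and from -0.16 to 0.71.

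**Figure D2:**
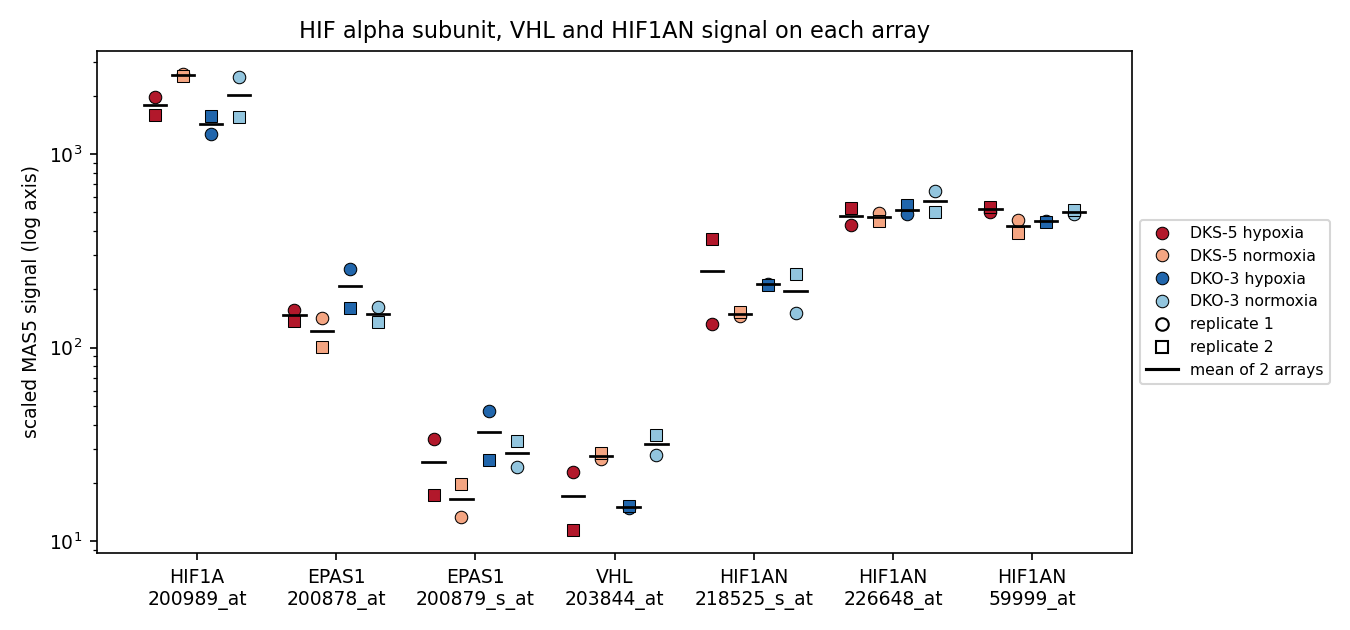
Scaled MAS5 signal (log axis) of HIF1A, EPAS1, VHL and HIF1AN probe sets on each of the 8 arrays, by group, with circles for replicate 1, squares for replicate 2 and a bar at the mean of 2 arrays. The HIF1A hypoxia arrays lie between 1277 and 1977, and DKO-3 normoxia replicate 2, at 1561, lies among them.

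No beta subunit passed. ARNT, the common partner of all HIF alpha proteins, had 6 tested probe sets, with averaged hypoxia differences from -0.21 to 0.21 and adjusted p of 0.693 or more. Within a single line the largest was 0.57 for 218222_x_at in DKO-3 (limma adjusted p = 0.610), against -0.20 in DKS-5 (adjusted p = 0.991). The probe set 231016_s_at read 364 and 434 in DKS-5 hypoxia, against 323 and 358 in DKS-5 normoxia. It read 409 and 347 in DKO-3 hypoxia, against 333 and 354 in DKO-3 normoxia, so that the DKO-3 groups overlapped. Its averaged interval ran from -0.17 to 0.51. The ARNT probe set 233714_at had the widest spread, at 85.8 and 29.7 in DKS-5 hypoxia and 117 and 35.7 in DKO-3 hypoxia. ARNT2, a related beta subunit used mainly in neural tissue, read 25.9 and 40.8 in DKS-5 hypoxia, against 34.997 and 33.1 in DKS-5 normoxia. It read 51.7 and 58.2 in DKO-3 hypoxia, against 51.5 and 60.3 in DKO-3 normoxia. Its averaged hypoxia difference was -0.03 ± 0.18 (adjusted p = 0.976).

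**Figure D3:**
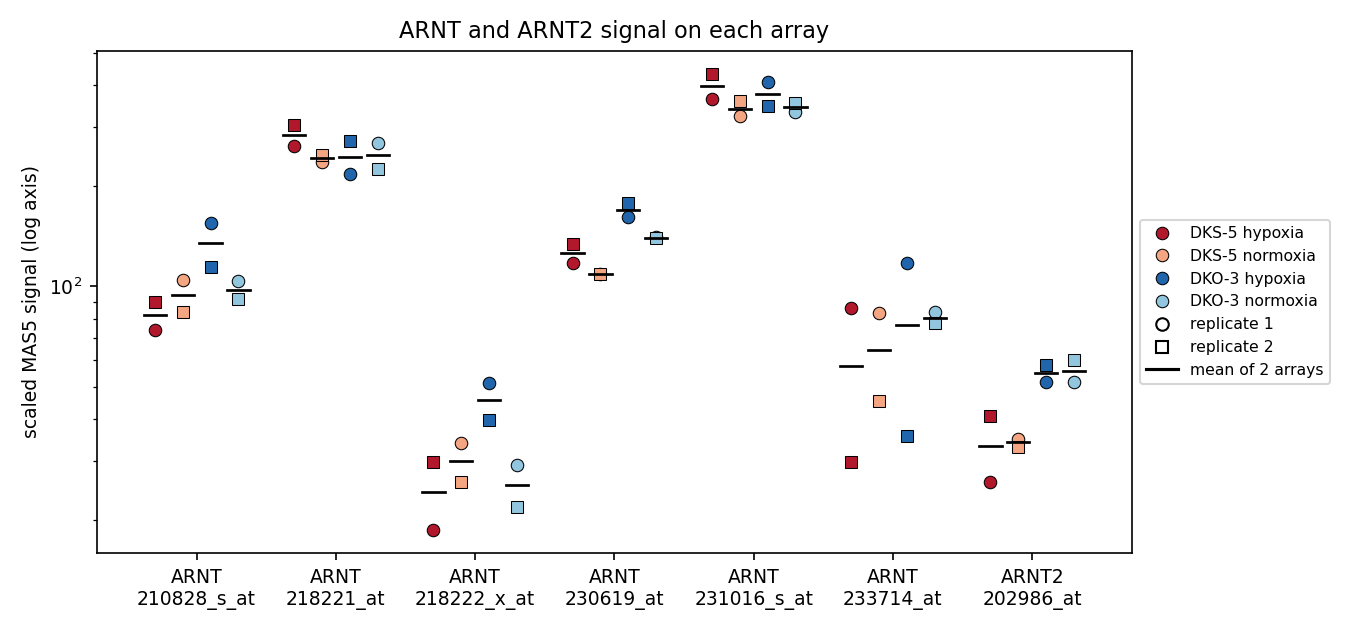
Scaled MAS5 signal (log axis) of 6 ARNT probe sets and the ARNT2 probe set on each of the 8 arrays, by group, with circles for replicate 1, squares for replicate 2 and a bar at the mean of 2 arrays. For ARNT2 all DKS-5 arrays (25.9 to 40.8) lie below all DKO-3 arrays (51.5 to 60.3), at both oxygen levels.

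VHL, the substrate-recognition part of the ligase that marks hydroxylated HIF alpha, was near the filter. Its tested probe set read 22.9 and 11.4 in DKS-5 hypoxia, against 26.6 and 28.6 in DKS-5 normoxia. It read 14.8 and 15.1 in DKO-3 hypoxia, against 28.0 and 35.3 in DKO-3 normoxia. All 4 hypoxia arrays lay below all 4 normoxia arrays. The averaged difference of -0.52 ± 0.18 did not pass (adjusted p = 0.295), nor did that in DKS-5 (-0.42, adjusted p = 0.961) or DKO-3 (-0.62, adjusted p = 0.566). Its other probe set, 1559227_s_at, was below the filter, between 4.52 and 24.4.

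HIF1AN, the asparaginyl hydroxylase, did not pass with any of its 3 probe sets. The probe set 226648_at read 429 and 529 in DKS-5 hypoxia, against 496 and 450 in DKS-5 normoxia. It read 488 and 545 in DKO-3 hypoxia, against 642 and 504 in DKO-3 normoxia. The groups overlapped in both lines, with an averaged difference of -0.06 ± 0.16 (adjusted p = 0.927) and an interval from -0.40 to 0.28. The probe set 59999_at had an averaged difference of 0.06 ± 0.15 (adjusted p = 0.921). Its hypoxia arrays lay above the normoxia arrays in DKS-5 (0.28, adjusted p = 0.965) and below them in DKO-3 (-0.16, adjusted p = 0.899). The third, 218525_s_at, had 133 and 366 in DKS-5 hypoxia, a gap between replicates wider than the difference from the 146 and 152 in DKS-5 normoxia (0.53 ± 0.36, adjusted p = 0.964).

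**Figure D4:**
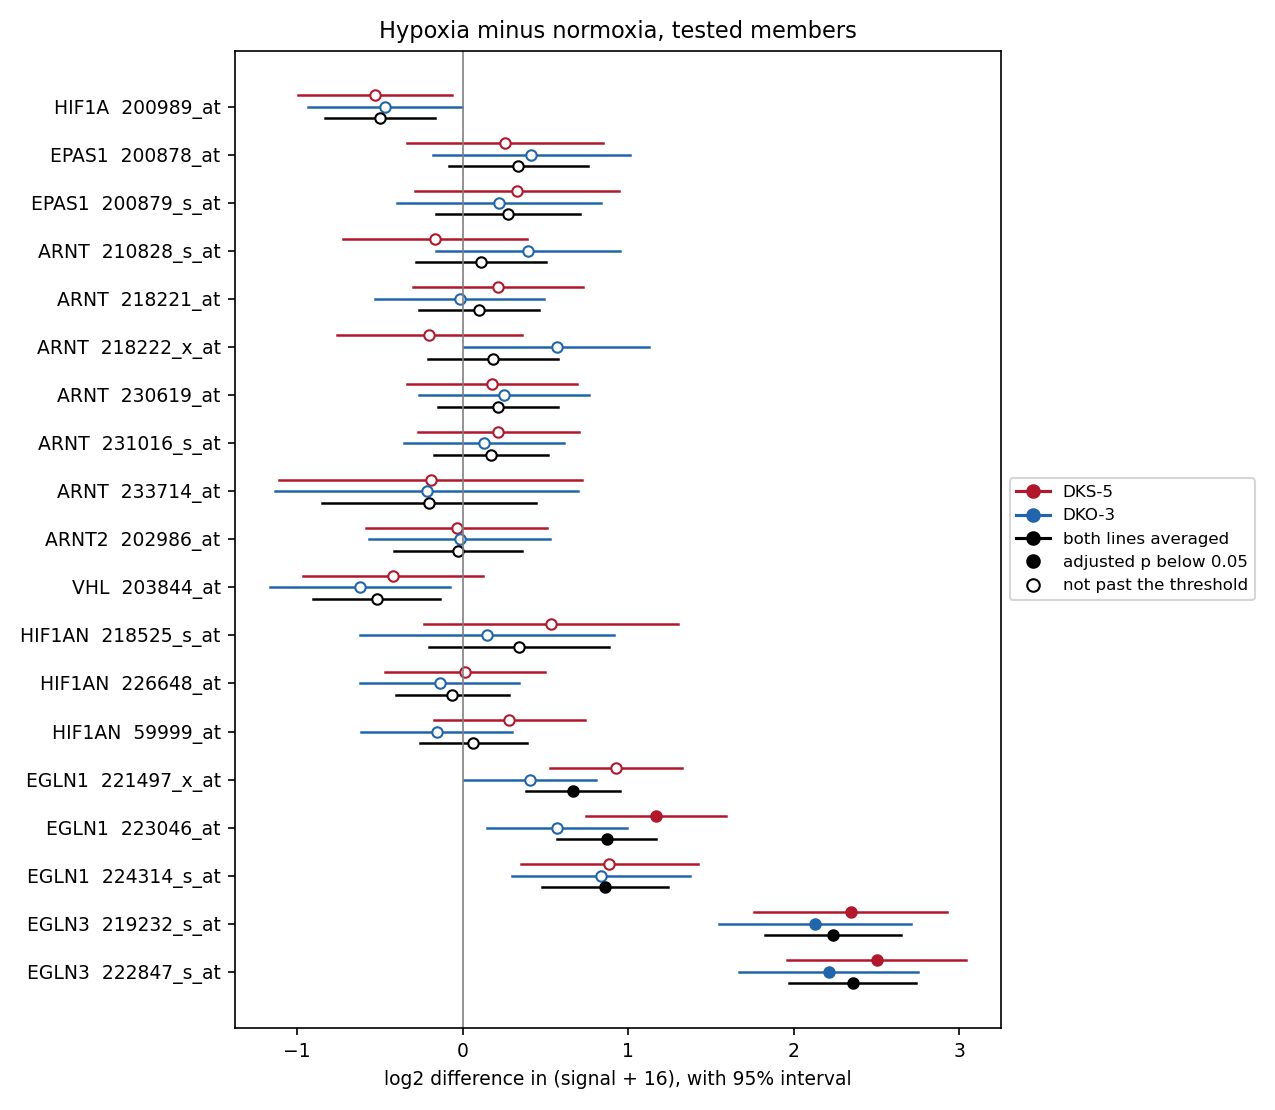
Hypoxia minus normoxia on the log2(signal + 16) scale for the 19 tested member probe sets, in DKS-5, in DKO-3 and averaged over the lines, with unadjusted 95% intervals and filled points where the adjusted p is below 0.05. The EGLN3 points lie between 2.13 and 2.50 and the averaged EGLN1 points between 0.67 and 0.87. These and the DKS-5 point of EGLN1 223046_at (1.17) are filled, and no other point is.

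No member differed past the threshold in how it responded in the lines. For the difference of the hypoxia responses, DKS-5 minus DKO-3, 0 of 19 member probe sets passed, where 0% of all probe sets did. Of all 32768 probe sets 736 had an unadjusted p under 0.05 in limma, and of the 19 members 1 did. That was EGLN1 223046_at, at 0.60 ± 0.28 (adjusted p = 1.00). EGLN1 221497_x_at stood at 0.52 ± 0.26, whereas 224314_s_at, for the same gene, stood at 0.05 ± 0.36. For EGLN3 the differences were 0.29 and 0.22, with intervals from -0.47 to 1.06 and from -0.61 to 1.04. For HIF1A the interval ran from -0.72 to 0.60. The difference largest in size among the members was that of ARNT 218222_x_at, at -0.77 ± 0.37, with an interval from -1.56 to 0.02. That probe set was dim, between 18.6 and 51.4, and its suffix marks probes that may also match other transcripts. ARNT 210828_s_at stood at -0.56 ± 0.37, and the other tested ARNT probe sets between -0.07 and 0.23. These intervals are wide, and a p above the threshold does not show equal responses.

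Between the lines, no member passed either. In hypoxia 0 of 19 did, where 2.08% of all probe sets were called in either direction. In normoxia 0 of 19 did, where 1.15% were, and averaged over oxygen 0 of 19 did, where 5.7% were. At an unadjusted p under 0.05, limma gave 4 of 19 in hypoxia, 0 in normoxia and 4 in the average. Of all 32768 probe sets, 5210, 2907 and 6287 had such a p in these comparisons. The member probe sets in hypoxia were both of EGLN3 and ARNT 210828_s_at and 218222_x_at. In the average they were both of EGLN3, ARNT2 and HIF1A. The nearest to the threshold was EGLN3 219232_s_at, higher in DKS-5 by 0.59 ± 0.19 averaged over oxygen (adjusted p = 0.0928), with 222847_s_at at 0.53 ± 0.18 (adjusted p = 0.109). In hypoxia the DKS-5 arrays of both EGLN3 probe sets lay above the DKO-3 arrays, by 0.70 (adjusted p = 0.219) and 0.67 (adjusted p = 0.204), and by 0.26 and 0.23 without array scaling. The EGLN3 levels were thus ordered DKS-5 hypoxia, DKO-3 hypoxia, DKS-5 normoxia, DKO-3 normoxia, with the lines not separated beyond the test at either oxygen level.

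ARNT2 was lower in all 4 DKS-5 arrays than in all 4 DKO-3 arrays, by -0.53 ± 0.18 averaged over oxygen (adjusted p = 0.113). Without array scaling, where the median of all probe sets was -0.21 and 3298 of 32768 were called lower, ARNT2 passed at -0.69 (adjusted p = 0.0293). HIF1A stood at 0.35 ± 0.15 averaged over oxygen (adjusted p = 0.228). In hypoxia its line difference of 0.32 turned to -0.13 without array scaling and to -0.24 with the ACTB ratio as a covariate, none of them past the threshold. In the ARNT probe sets the averaged line difference ran from -0.36 for 230619_at to 0.09 for 218221_at, and for EPAS1 it was -0.35 and -0.40. In hypoxia ARNT 210828_s_at (-0.61, limma adjusted p = 0.264) and 218222_x_at (-0.62, adjusted p = 0.258) were lower on all DKS-5 arrays without passing. Without array scaling 210828_s_at (-1.002, adjusted p = 0.0300) and 218222_x_at (-0.91, adjusted p = 0.0385) passed in hypoxia. In that setting the hypoxia median of all probe sets was -0.42, and 5100 of 32768 were called lower in DKS-5. The EGLN1 line differences averaged over oxygen ran from -0.21 to 0.09 (-0.43 to -0.14 without array scaling), and the averaged intervals of its 3 probe sets lay within -0.59 to 0.38.

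**Figure D5:**
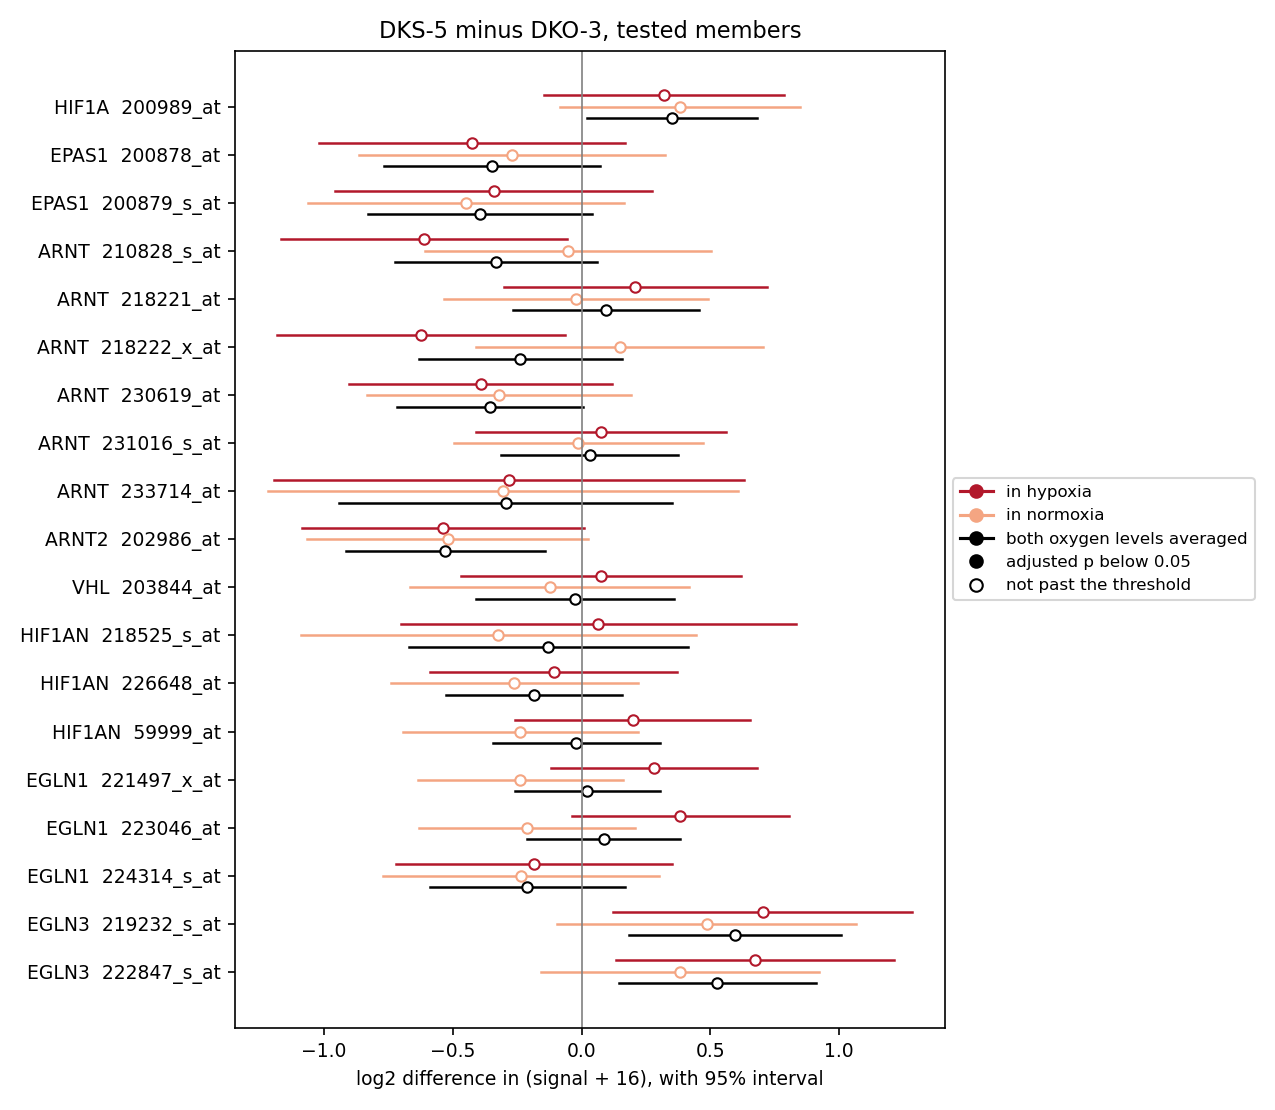
DKS-5 minus DKO-3 on the log2(signal + 16) scale for the 19 tested member probe sets, in hypoxia, in normoxia and averaged over oxygen, with unadjusted 95% intervals. No point is filled, since none had an adjusted p below 0.05. EGLN3 (0.59 and 0.53) and ARNT2 (-0.53) lie farthest from 0 in the average.

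The rest of the pathway was read from 3 lists. The first held the ligase partners of VHL, coactivators and other regulators of HIF stability. Of its 59 tested probe sets for 26 genes, 0 rose and 0 fell in DKS-5, in DKO-3 or in the average of the lines. Of all probe sets tested, 0.259%, 0.174% and 0.58% were called higher in these comparisons. The list's averaged median was 0.08, against 0.02 for all probe sets tested. Between the lines 1 of the 59 was lower in the average, where 5.7% of all probe sets were called in either direction. It belonged to the coactivator gene NCOA2, at -0.80 (adjusted p = 0.0324). The second list held other genes of the bHLH-PAS family, to which the HIF subunits belong, with 19 tested probe sets for 10 genes. In hypoxia 1 of these rose in DKS-5 and in the average of the lines, and 0 in DKO-3. It belonged to NPAS3, a transcription factor gene of the nervous system, and read 56.8 and 56.2 in DKS-5 hypoxia, against 7.60 and 7.59 in DKS-5 normoxia. In DKO-3 it read 8.30 and 10.9 in hypoxia, against 3.96 and 2.68 in normoxia. All 6 arrays outside DKS-5 hypoxia were below the filter signal, so this probe set passed the filter only through the group where it was high. Its fitted difference was 1.62 in DKS-5 (adjusted p = 0.00412) and 1.01 in the average (adjusted p = 0.00704). Neither call held without array scaling or with a pseudocount of 1, and the 8 other NPAS3 probe sets were below the filter. Between the lines, averaged over oxygen, 3 of the 19 were higher in DKS-5, of NPAS3 (0.90) and CLOCK (0.69). Another 3 were lower, all of NPAS2 (-0.94), where 5.7% of all probe sets were called in either direction. The value of each gene is that of its probe set with the smallest p.

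The third list held HIF target genes and, like the members, was chosen with earlier results of these data known. Of its 90 tested probe sets for 41 genes, 59 rose for 35 genes and 1 fell in the average of the lines. Of all probe sets tested, 0.58% were called higher. The list's median was 0.95, against 0.02 for all probe sets tested. The fall was in HK2, a hexokinase gene, at -1.69 for 222305_at (adjusted p = 0.000118), while 202934_at of the same gene rose by 0.64 (adjusted p = 0.00891). In DKS-5 37 rose for 23 genes and in DKO-3 27 for 15 genes, with the same HK2 probe set the 1 that fell in each. The smallest p in the average were those of NDRG1, a hypoxia-induced stress gene (3.08), DDIT4, an inhibitor of mTOR (1.91), BNIP3L, a mitophagy receptor gene (2.07), and AK4, a mitochondrial adenylate kinase gene (1.82). Of the 90 target probe sets, 2 and 3 had a larger averaged difference than the EGLN3 probe sets, and 50 to 68 had a larger one than the EGLN1 probe sets. In hypoxia 2 target probe sets were higher in DKS-5 than in DKO-3 and 0 lower. These were of VEGFA (1.78, limma adjusted p = 0.00111) and ALDOC (1.05, adjusted p = 0.0476). In normoxia 0 were higher and 3 lower, of NDRG1 (-1.43), ENO2 (-1.58) and SLC2A3 (-1.20). Averaged over oxygen 4 were higher and 3 lower. Of all probe sets tested, 2.08%, 1.15% and 5.7% were called in these comparisons.

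The genes whose array profiles were most like those of the hydroxylases were found by the root mean square difference of centred log2 values over 8 arrays, among 12734 other genes. Nearest to EGLN3 219232_s_at were ANGPTL4 (0.246), CFAP96 (0.306), PFKFB4 (0.314), PRR15L (0.346) and FGD5 (0.386), where the median gene was at 1.19. ANGPTL4 encodes a secreted lipase inhibitor and PFKFB4 a regulator of glycolysis. In hypoxia these 5 rose by 1.63 to 2.11 in the average of the lines. Nearest to EGLN1 223046_at were ADGRF4 (0.0734), PPP1R3B (0.138), MXI1 (0.150), IFT70A (0.162) and ZNF292 (0.166), where the median gene was at 0.537. MXI1 encodes an antagonist of MYC and PPP1R3B a glycogen-targeting phosphatase subunit. Of these 5, IFT70A did not pass in hypoxia (0.65, adjusted p = 0.153) and the others rose by 0.80 to 0.92. These profiles share arrays, scaling and the hypoxia contrast, so the likeness is a description.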

How the data were processed

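The authors deposited 1 table of linear MAS5 intensity values (54675 probe sets, 8 arrays, with MAS5 per the submitters' processing notes and with version, target and detection calls not given in the sources used here). Per the labels' protocols, RNA was column-purified, amplified to cDNA and labelled with biotin. Trimmed means of the arrays differed 1.52-fold, so each array was scaled to their median, which a rule called for when they differed by over 10%. Values were taken as log2(signal + 16). The 62 control probe sets and those with a mean at or below the 40th percentile were left out, leaving 32768. Genes were named from the platform annotation with RefSeq symbols (41037 of 41091 matched). Tests used limma 3.58.1 in R 4.3.3 (1 mean per group, contrasts, eBayes with a trend, 4 residual and 10.8 prior degrees of freedom), two-sided, adjusted over all probe sets tested in each of 7 comparisons. The code was tested on simulated data. Of probe sets given a true log2 difference of 1, 7% passed in DKS-5, 11% in DKO-3 and 44% in the average of the lines. Of those given 2, 60%, 61% and 91% passed. A difference of 1 could thus often go without a call.

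The members and lists were chosen with earlier results of these data known. Named from the lists were up to 4 genes per list and comparison with the smallest p among those past the threshold, and the 5 genes nearest to each called member. HK2 was named after its values were seen. Alternatives were no or quantile scaling, a pseudocount of 1, no filter, 1 row per gene, fits of 4 arrays, no trend, the replicate number as a block, the ACTB ratio as a covariate, and leaving out each array. The K-ras gene is not analysed here.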

Additional observations from a re-analysis of the deposited data

How the results depend on the processing

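Under 17 other settings no called member changed sign, 38 single calls were lost and 5 gained, and 129 of 2127 values compared changed sign without a call on either side. In DKO-3, the count of 2 member probe sets became 0 with dim probe sets kept (EGLN3, adjusted p = 0.0763 for both), 1 with 1 row per gene (which holds 1 EGLN3 probe set) and 1 with the ACTB covariate, and ran from 0 to 2 without single arrays. In the average of the lines, the count of 5 became 3 without array scaling, and 2 without the filter, with 1 row per gene, without the trend and with the covariate. It ran from 3 to 5 without single arrays. In DKS-5 the count of 3 ran from 2 to 3 without single arrays, and EGLN1 223046_at also missed without array scaling (0.91, adjusted p = 0.255), without the filter (adjusted p = 0.174), in the fit of 4 arrays (adjusted p = 0.0890) and without the trend (adjusted p = 0.146). DKS-5 against DKO-3 stood at 3 in hypoxia and 1 averaged over oxygen without array scaling, in place of 0 each. All of these were lower in DKS-5 (ARNT, ARNT2). Of all 32768 probe sets, 111 were then called higher and 5100 lower in hypoxia, and 246 higher and 3298 lower in the average. That setting moved the median of all probe sets to -0.42 in hypoxia, and 2.13% of all calls in hypoxia were then higher, against 27.5% with scaling. Apart from the changes by construction (fewer or more rows tested, fewer samples), the cause was not tested.

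Over all probe sets, the calls in DKS-5 ran from 31 to 193 around 86, in DKO-3 from 1 to 116 around 58, in the average from 71 to 786 around 199, and between the lines from 104 to 5211 around 683 in hypoxia, from 111 to 587 around 378 in normoxia and from 532 to 3544 around 1869 in the average. Calls among the 90 HIF target probe sets ran from 17 to 43 in DKS-5, from 1 to 40 in DKO-3 and from 34 to 70 in the average. The replicate numbers of the labels were tried as a block. Deviations of same-numbered arrays correlated at -0.056 to 0.352 between groups and exceeded 0.1 in 4 of 6 pairs of groups, not in all, and the labels state no shared batch, so the numbers were not taken to pair the samples. With the replicate block 4 member probe sets passed in DKS-5, 2 in DKO-3, 5 in the average and 0 in the other comparisons. The added one was EGLN1 221497_x_at (0.93, adjusted p = 0.0372). Of all 32768 probe sets, 111, 113 and 338 were then called higher in DKS-5, DKO-3 and the average, against 85, 57 and 190 without the block. A count of 2 arrays per group limits all of these values, and signals near the filter limit VHL and EPAS1 200879_s_at. Leaving out an array leaves its group with 1, assumed to vary like the other groups.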
